A study of Mus musculus with 4 samples.

Results

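The epidermal kallikreins and their inhibitor Spink5 were followed here as 9 named genes, Klk5, Klk6, Klk7, Klk8, Klk10, Klk11, Klk13, Klk14 and Spink5. They are 9 of the 32285 genes counted in each of 4 single-cell RNA libraries from mouse back-skin epidermis, and were taken by name. Kallikreins are secreted serine proteases that are made as inactive precursors and, in the outer epidermis, cut the junction proteins that hold dead surface cells together, so that these cells can be shed. Klk5 is known as a trypsin-like protease that can activate other kallikreins, and Klk7 as a chymotrypsin-like protease that cuts corneodesmosin. Spink5 encodes LEKTI, an inhibitor released in fragments in the granular layer, whose loss in Netherton syndrome leaves kallikreins unchecked and the barrier leaky.

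The libraries came from adult mice aged 2 to 17 months, male and female in equal parts, all with floxed alleles of the ΔNp63 isoform of Trp63 and all given tamoxifen by mouth, 200 mg/kg a day on 5 days. The control libraries are DNp63fl/fl mice without Cre. The ablated libraries are DNp63fl/fl;K14-CreT2 mice, in which the keratin 14 promoter drives a tamoxifen-activated Cre in basal keratinocytes and other cells that use that promoter. Cells were taken 1 day or 1 week after ablation, with 1 library per genotype and time. How many mice went into a library is not given in the sources used here. Each comparison is therefore between 2 libraries, with no replicate check: intervals below are 95% intervals for counting error only, and no p-value is given. A 3′ kit was used for the 1-day pair of libraries and a 5′ kit for the 1-week pair, so each ablated library was set against the control of its own time only. Trypsin digestion was overnight at 4 °C or shorter at 37 °C, and which library had which is not given in the sources used here.

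The 4 matrices held 18413 to 33552 cell barcodes and 68191870 to 179736563 unique molecular identifiers (UMIs, 1 per captured RNA molecule), with a median of 1298 to 4209.5 UMIs per barcode. The lowest UMI count of a barcode was 500 in both controls, 1368 in the 1-day ablated library and 1059 in the 1-week ablated library. Barcodes shared between the libraries of a time point numbered 299 after 1 day and 661 after 1 week. Trp63 in keratinocytes was 403 CPM for the 1-day control and 131 CPM for its ablated counterpart, and 442 and 141 CPM after 1 week. CPM, the usual normalised count, is a gene's UMIs summed over the cells named, divided by all UMIs of those cells and scaled to a fixed total. These UMIs count every isoform of Trp63 and do not show the floxed part itself. UMIs tag one end of a molecule, so levels were not divided by gene length.

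Cells were clustered without the 9 genes and named from fixed marker genes. Keratinocytes numbered 21094 control and 14885 ablated cells after 1 day, and 6233 and 3693 after 1 week. They leave out clusters of mixed markers, with 157 control and 2345 ablated cells after 1 day, and 1297 and 97 after 1 week. Clusters of low UMI counts are also left out, with 147 and 56 cells after 1 day, and 11696 and 11415 after 1 week. A cluster led by Krt8, left out too, held 6 control and 5277 ablated cells after 1 day. Shares below are of the keratinocytes kept. The basal-like, spinous-like and granular-like classes stand for the layers from the bottom to the top of the epidermis, and the bulge-like class for deeper follicle cells. The upper follicle-like class was named from markers such as Krt79 and Cst6, as in the hair follicle canal. Its larger 1-day cluster also had leading genes of the outer epidermis and lay between classes, as described below. Granular-like cells made up 0.910% of control and 7.62% of ablated keratinocytes after 1 day, and 2.87% and 17.1% after 1 week. Basal-like cells made up 23.1% and 3.65% after 1 day, and 32.8% and 0.379% after 1 week. Only 14 basal-like and 7 spinous-like cells were found in the 1-week ablated library, so these classes were compared after 1 day only.

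All 8 kallikreins lie on the plus strand of mouse chromosome 7, within 160764 bases (chr7:43690418-43851181, GRCm38), in the order Klk14, Klk13, Klk11, Klk10, Klk8, Klk7, Klk6 and Klk5. Klk12 and Klk9 are the other protein-coding genes in that stretch. Spink5 lies on another chromosome. The bases just upstream of 4 of these neighbours are shown here, chosen by the values given below. Klk6 and Klk13 had the largest ratios after 1 week, Klk13 from under 20 control UMIs. Klk10 was highest in upper follicle-like cells of both ablated libraries, and Klk7 held the most kallikrein UMIs. Each sequence is RefSeq, build GRCm38.p6, plus strand, and ends on the base before the annotated gene start. They are chr7:43712317-43712566 for Klk13, chr7:43780804-43781034 for Klk10, chr7:43811044-43811293 for Klk7 and chr7:43824294-43824498 for Klk6. Capitals mark the matches to any of the motifs searched.
Klk13: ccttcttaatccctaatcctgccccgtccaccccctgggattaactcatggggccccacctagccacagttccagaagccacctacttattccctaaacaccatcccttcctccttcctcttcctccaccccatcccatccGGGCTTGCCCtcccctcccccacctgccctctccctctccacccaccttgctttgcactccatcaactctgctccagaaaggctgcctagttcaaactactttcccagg
Klk10: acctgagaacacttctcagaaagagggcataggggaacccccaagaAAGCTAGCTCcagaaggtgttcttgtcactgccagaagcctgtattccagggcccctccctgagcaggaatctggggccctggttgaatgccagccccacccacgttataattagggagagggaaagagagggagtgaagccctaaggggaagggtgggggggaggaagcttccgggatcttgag
Klk7: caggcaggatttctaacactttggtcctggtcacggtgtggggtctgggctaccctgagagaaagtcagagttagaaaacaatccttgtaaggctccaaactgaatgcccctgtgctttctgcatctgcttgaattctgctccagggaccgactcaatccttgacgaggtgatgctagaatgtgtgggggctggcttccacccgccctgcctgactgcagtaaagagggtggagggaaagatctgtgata
Klk6: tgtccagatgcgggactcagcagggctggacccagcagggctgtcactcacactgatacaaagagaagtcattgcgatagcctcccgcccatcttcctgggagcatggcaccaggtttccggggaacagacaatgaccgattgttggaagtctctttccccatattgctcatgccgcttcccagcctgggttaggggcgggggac
Both strands were searched for 5 motifs: AP-1 (TGANTCA), grainyhead-like (AACCNGTT), C/EBP (TTGCNNAA), the p53-family decamer and a TATA box (TATAAA). The capitals in Klk13 and Klk10 are decamers of the p53 family, to which p63 belongs. Such a decamer was present in 7.13% of 32851 mouse promoters of 250 bases, so a match is common by its letters alone. The Klk7 and Klk6 stretches held no match to any of the 5. Among the 10 promoters read for the 8 kallikreins, the remaining matches were 2 C/EBP motifs, 1 before each of 2 start sites of Klk11, a motif found in 9.56% of promoters. A match describes the letters in this window and is not a measured binding site.

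In the control libraries, Klk5, Klk7, Klk8 and Spink5 were at their highest level in granular-like cells. Klk7 stood at 4484 CPM in granular-like cells of the 1-day control, 1546 in upper follicle-like cells, 44.7 in spinous-like cells and 26.3 in basal-like cells. The same order held in the 1-week control, at 1904, 978, 286 and 1.45 CPM. Spink5 followed it too, with 6849, 1083, 254 and 28.3 CPM after 1 day and 2722, 1058, 937 and 13.1 CPM after 1 week. Neighbouring levels in these 4 orders had intervals that did not overlap. Klk5 stood at 589 CPM in granular-like, 97.1 in upper follicle-like, 16.1 in spinous-like and 1.94 in basal-like cells of the 1-day control. In the 1-week control spinous-like cells had 166 CPM of Klk5, above the 126 CPM of the upper follicle-like class. Klk8, a trypsin-like protease, was likewise highest in granular-like cells, at 545 CPM after 1 day and 137 after 1 week.

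Klk10 and Klk11 did not follow that gradient. By CPM, Klk10 was highest in upper follicle-like cells of the 1-day control (28.6 CPM). It was 17.3 CPM in basal-like cells, and only 3.61 CPM (6 UMIs) in granular-like cells. The 10 highest cells held 52.3% of its upper follicle-like UMIs and 8.57% of its basal-like UMIs. The share of cells with a Klk10 UMI had the other order, with 89 of 2118 upper follicle-like and 327 of 4870 basal-like cells. In the 1-week control Klk10 was 28.3 CPM in basal-like and 27.9 CPM in upper follicle-like cells, with overlapping counting intervals. It was 88.2 CPM in granular-like cells. The 10 highest cells held 17.6% of its basal-like, 90.2% of its upper follicle-like and 84.5% of its granular-like UMIs. A Klk10 UMI was found in 13.5%, 3.86% and 18.4% of these cells, without thinning. The upper follicle-like and granular-like levels of Klk10 in this library thus came mostly from few cells. Klk11, a trypsin-like family member, varied less by layer than Klk5, Klk7 or Klk8: after 1 day it was 39.5 CPM in basal-like, 53.2 in spinous-like and 65.0 in granular-like cells, and the last 2 intervals overlapped. At 1 week its highest control level was in spinous-like cells, at 106 CPM, against 67.0 in basal-like and 58.4 in granular-like cells. By share, basal-like cells held 30.4% of the Klk10 and 19.8% of the Klk11 UMIs of 1-day control keratinocytes, but 1.54% of the Klk7 and 0.926% of the Spink5 UMIs.

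Klk6, Klk13 and Klk14 were scarce in control skin. Klk6 was 80.1 CPM in granular-like and 31.8 CPM in upper follicle-like cells after 1 day, and 32.2 and 27.3 CPM after 1 week, where the intervals overlapped. Upper follicle-like cells, 10.0% of the 1-day control keratinocytes, held 47.4% of their Klk6 UMIs. Klk13 gave 0 UMIs in upper follicle-like cells of both controls, and 1 and 4 UMIs in their granular-like cells. Klk14 gave 4 UMIs in all keratinocytes of the 1-day control and 2 in those of the 1-week control. All 4 of the former, and 1 of the latter, were in bulge-like cells.

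**Figure D1:**
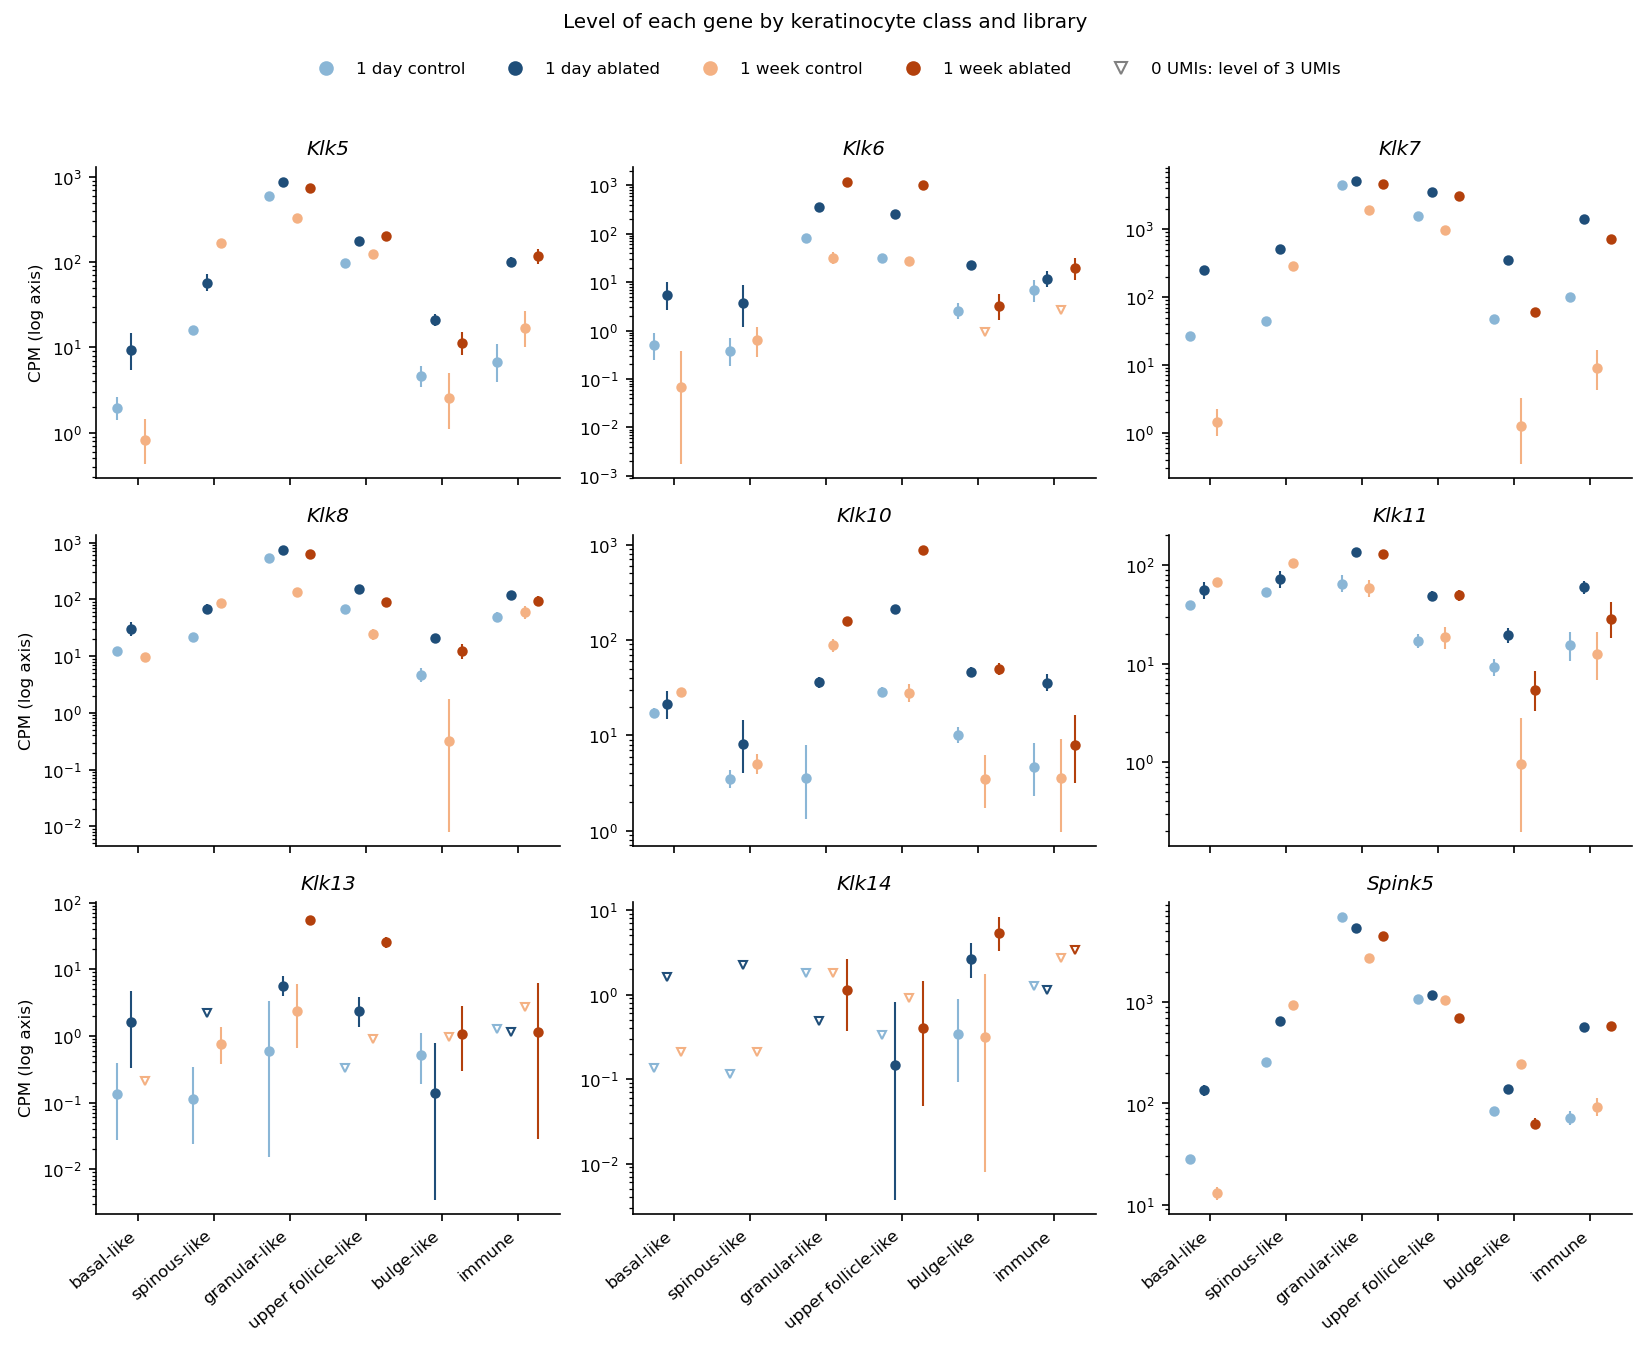
Level of each gene (CPM, log axis) in 5 keratinocyte classes and in immune cells of the 4 libraries; bars are 95% Poisson intervals for counting error, and open triangles mark classes with 0 UMIs at the level that 3 UMIs would give. Klk7 and Spink5 are highest in granular-like cells, where Klk7 is 4484 CPM in the 1-day control, while Klk10 in the 1-week ablated library is highest in upper follicle-like cells, at 878 CPM; 1-week ablated basal-like and spinous-like cells are too few to show.

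Low levels can hold free RNA, and the same genes were therefore read in immune cells. Pooled, these had 99.8 CPM of Klk7 in the control and 1401 CPM after ablation in the 1-day pair, and 8.92 and 713 CPM after 1 week. Their Spink5 was 72.2 and 563 CPM after 1 day, and 92.8 and 587 CPM after 1 week. For Klk6 the pooled immune level was far lower, at 6.79 and 11.7 CPM after 1 day and 0 and 19.3 CPM after 1 week. For Klk10 it was 4.67 and 35.8 CPM after 1 day, and 3.57 and 7.93 CPM after 1 week. The immune clusters differed from one another, so this is not 1 level of free RNA. In the 1-day ablated library Klk7 ran from 378 to 2407 CPM over 3 immune clusters. Klk6 ran from 0 to 45.2 CPM over these clusters in the 1-day control, reaching above its 31.8 CPM in upper follicle-like cells. In the 1-week ablated library a T cell-like cluster had 0 UMIs of Klk7 and 13.7 CPM of Spink5, and a Langerhans or dendritic cell-like cluster had 941 and 800 CPM. Klk8 was 157 CPM in that T cell-like cluster of the 1-week control, with 0 or 1 UMI of every other kallikrein. The part of free RNA in low levels was not tested, and immune values are given beside some of them.

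Over all keratinocytes, each of the 9 genes was more than 2-fold higher in the 1-day ablated library than in its control. A gene was counted as changed when the ratio passed 2-fold and the 2 libraries together held at least 20 UMIs. By that rule 9 of 9 genes rose and 0 fell, where 6.19% of the 14754 genes tested rose and 3.05% fell. At 1 week 8 of 9 rose, Klk11 being the exception, and 0 fell, where 9.82% of 14536 genes rose and 5.76% fell. Klk14 at both times and Klk13 after 1 week had under 20 control UMIs and reached the minimum through the ablated library, so their place in these counts is no support. Of the genes with at least 20 control UMIs, 8 of 8 rose after 1 day and 6 of 7 after 1 week. The shares of all genes are for at least 20 UMIs in the 2 libraries together. No such share was computed at the control minimum, here or for the classes and lists below. The median log2 ratio of the 9 genes was 2.36 after 1 day and 3.22 after 1 week, beside 0.00 and 0.07 for all genes tested. Over the genes with at least 20 control UMIs it was 2.25 after 1 day and 2.36 after 1 week. In sums over all keratinocytes, more cells of a class and more RNA per cell cannot be told apart, so the classes were also compared one by one. Summed immune markers in keratinocytes were 194 and 246 CPM after 1 day and 235 and 379 CPM after 1 week, with 22 and 14 of 27 higher in the ablated library, and their part in the result was not tested.

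The proteases that cut surface junctions changed as follows. Klk7 went from 339 to 3125 CPM after 1 day, a log2 ratio of 3.20, and from 231 to 2148 CPM after 1 week, a log2 ratio of 3.22. Klk5 went from 61.9 to 318 CPM after 1 day (log2 ratio 2.36, interval 2.32 to 2.40), and from 75.0 to 337 CPM after 1 week (2.17). Klk14, also able to cut junction proteins, went from 4 to 21 UMIs after 1 day and from 2 to 36 UMIs after 1 week. At these few UMIs its log2 ratios of 3.11 and 4.60 had wide intervals, from 1.54 to 5.11 after 1 day and from 2.65 to 7.70 after 1 week. In the ablated keratinocytes 90.5% of the Klk14 UMIs after 1 day and 55.6% after 1 week lay in bulge-like cells, where its level was 2.63 and 5.40 CPM.

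Among the other trypsin-like members, Klk6 had the largest ratio after 1 day, and Klk6 and Klk13 had ratios with overlapping intervals after 1 week. Klk6 went from 5.47 to 91.9 CPM after 1 day (log2 ratio 4.07) and from 3.66 to 507 CPM after 1 week (7.11, interval 6.91 to 7.33). Klk8 went from 56.6 to 248 CPM after 1 day and from 37.8 to 194 CPM after 1 week, log2 ratios of 2.13 and 2.36. Klk13 went from 44 to 102 UMIs after 1 day (1.93) and from 0.316 to 42.8 CPM after 1 week (7.08, interval 6.37 to 7.89). Klk11 had the smallest ratio of the 9 at both times, from 39.4 to 90.9 CPM after 1 day (1.21) and from 59.9 to 92.7 CPM after 1 week (0.63). Klk10, a family member of less defined activity, went from 11.3 to 60.2 CPM after 1 day (2.42) and from 17.4 to 324 CPM after 1 week (4.22). The inhibitor Spink5 went from 604 to 1514 CPM after 1 day (1.33) and from 498 to 1330 CPM after 1 week (1.42). The 2 libraries' Poisson intervals were apart for every one of these genes.

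**Figure D2:**
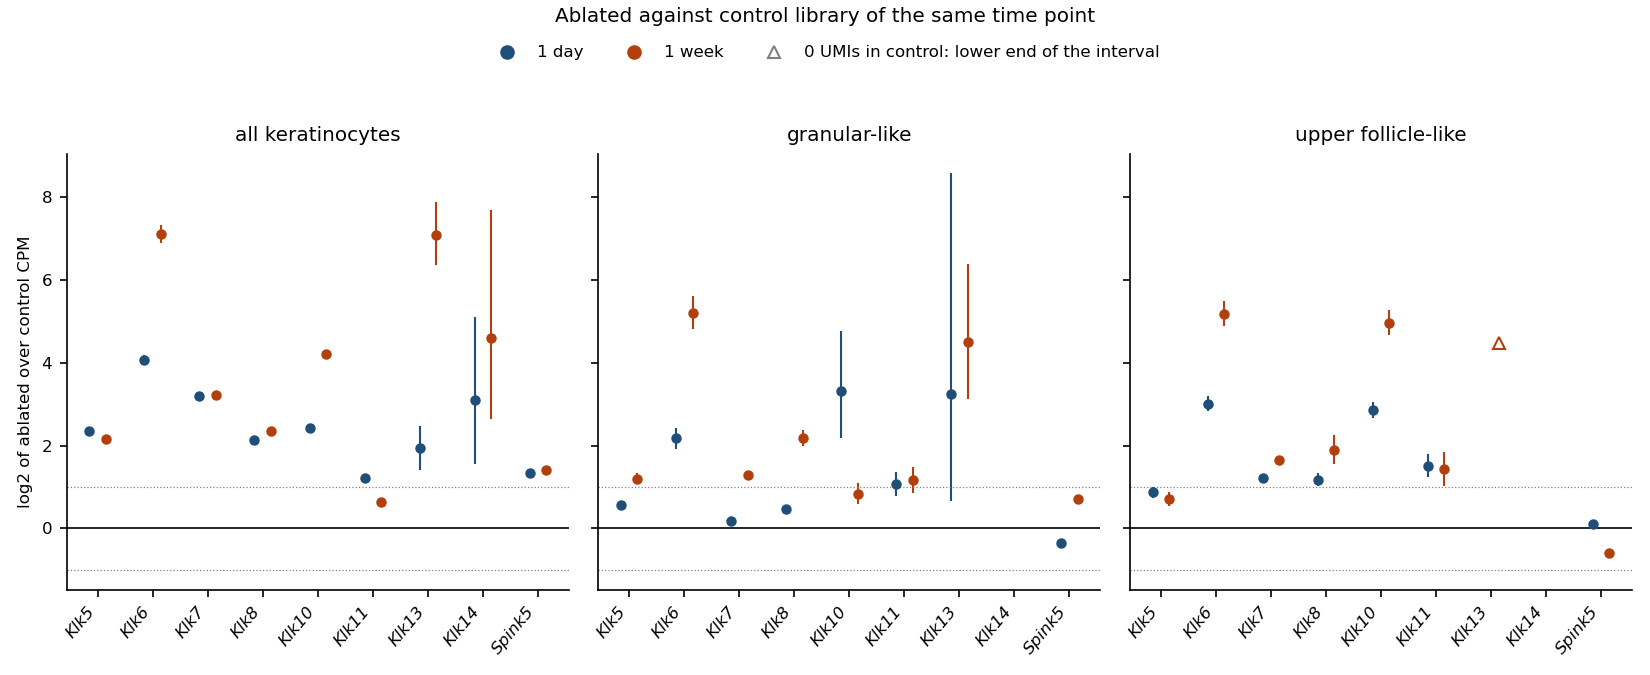
Log2 ratio of the ablated over the control library after 1 day and 1 week for each gene, in all keratinocytes, granular-like cells and upper follicle-like cells; bars are 95% intervals for counting error, dotted lines mark 2-fold, and the open triangle is the lower end of the interval where the control had 0 UMIs. Klk6 stands at 7.11 in all keratinocytes after 1 week, and Spink5 lies between the dotted lines in granular-like and upper follicle-like cells.

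Each 1-day library also carried 3 hashtag features with many UMIs. What the hashtags mark is not given in the sources used here, so their cells were not used as replicates, and 28.5% of control and 48.7% of ablated cells had no clear hashtag. Over the 3 hashtags, keratinocyte Klk7 ranged from 283 to 423 CPM in the control and from 2962 to 3545 CPM in the ablated library. Klk6 ranged from 4.47 to 7.26 and from 44.3 to 113 CPM, and Spink5 from 473 to 798 and from 1503 to 1779 CPM. The ranges were also apart for Klk5, Klk8, Klk10, Klk11 and Klk13. Single pairings of 1 ablated with 1 control hashtag fell inside 2-fold for Klk13, Klk11 and Spink5, with lowest log2 ratios of 0.28, 0.89 and 0.91. For Klk14 they overlapped, with 0 UMIs in every control hashtag.

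The sums over all keratinocytes mix the level within a class with the number of its cells. Granular-like cells held 19.6% of the Klk7 and 16.8% of the Spink5 UMIs of 1-day control keratinocytes, and 14.7% and 32.1% of those of the ablated keratinocytes. A larger part of the Klk7 UMIs of the 1-day ablated library came from keratinocytes without a class. One such cluster, with Sprr2d, Slpi and Sprr2f as its leading genes, held 4119 ablated and 10 control cells, and its ablated cells had 5387 CPM of Klk7, 1761 of Spink5 and 502 of Klk5. Another, led by Gm94, Orm1 and Ivl, had 1157 control and 569 ablated cells. In it Klk7 went from 823 to 3108 CPM, Klk5 from 304 to 586 and Spink5 from 2513 to 3577 CPM. Klk7 passed 2-fold there, and Klk5 and Spink5 did not. By hashtag the Spink5 ranges overlapped, at 2103 to 3017 and 2451 to 4170 CPM, with single pairings from -0.30 to 0.99. Median depth was 10876 UMIs in the control and 5098 in the ablated cells. Summed immune markers in that cluster were 74.1 and 169 CPM, with 18 of 27 higher in the ablated library, and their part in the result was not tested. In the 1-week ablated library, a cluster of 76 cells led by Krt6b, Sprr2d and Sprr1b had 8103 CPM of Klk6 and 2163 CPM of Klk13. It held 0 control cells, so no ratio was formed.

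**Figure D3:**
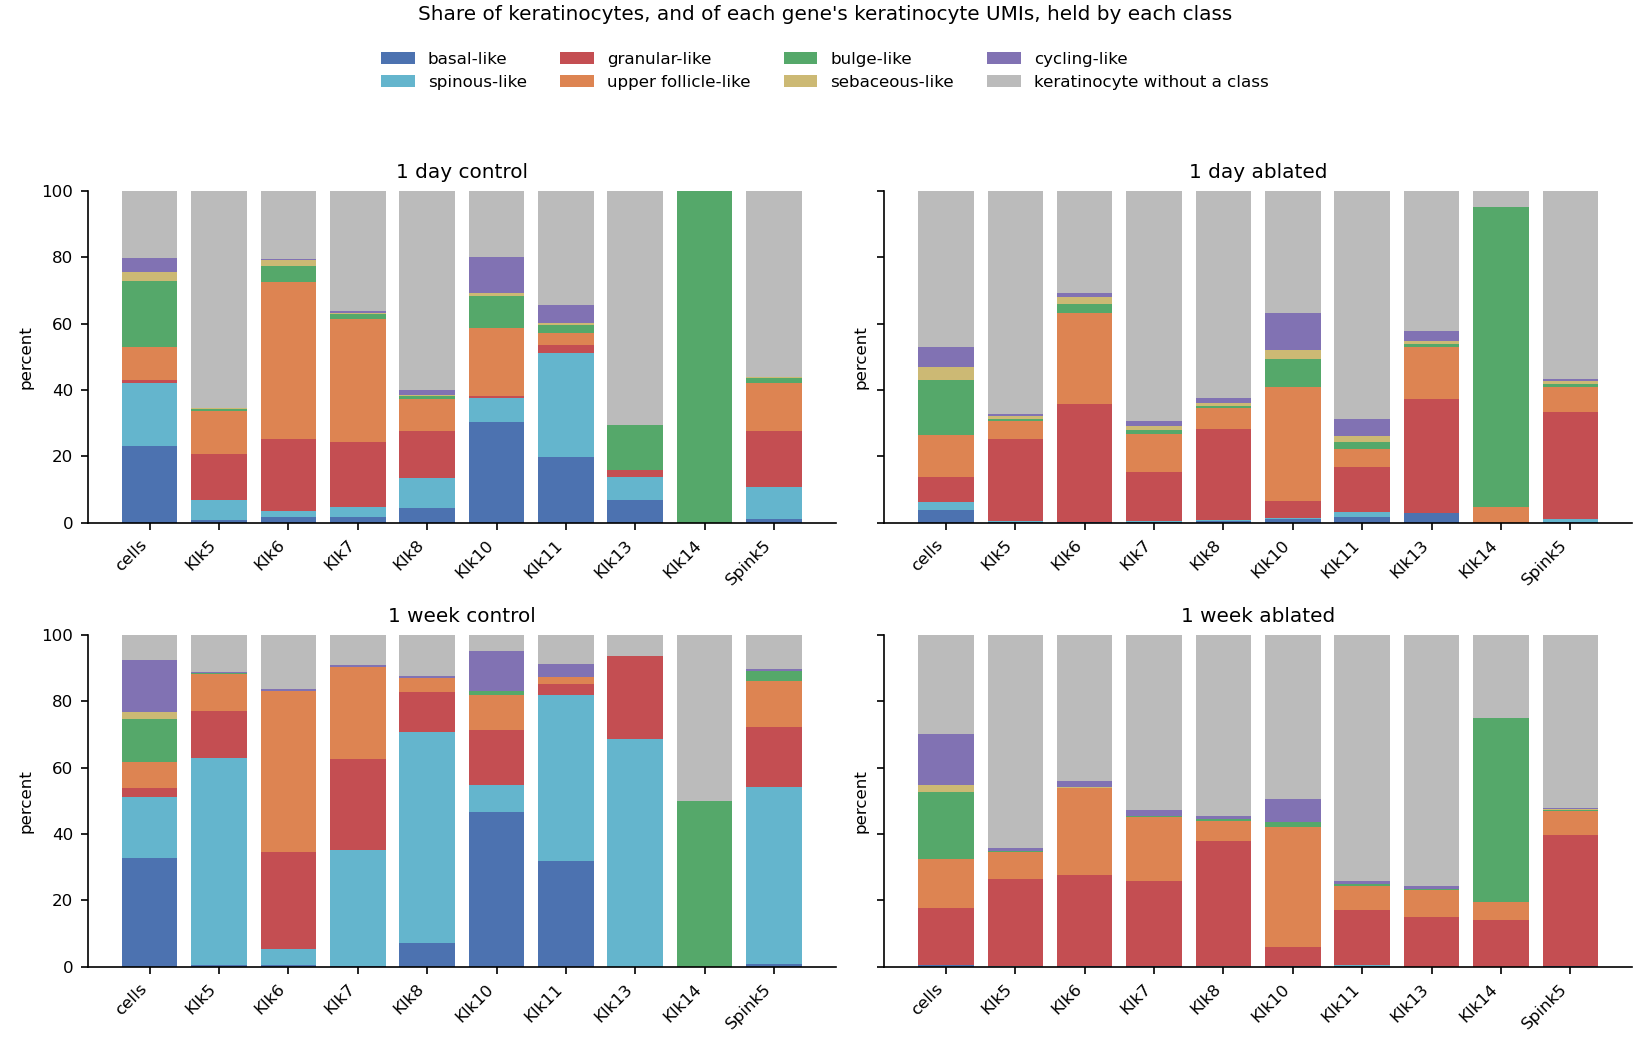
Share of keratinocytes (first bar) and of each gene's keratinocyte UMIs (other bars) in each class, in percent, for each library. Granular-like cells are 0.910% of the 1-day control keratinocytes but hold 19.6% of their Klk7 UMIs; the grey part of the 1-day ablated library is larger for Klk7 than for Klk6.

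Within granular-like cells the ratio after 1 day was closer to 0 than over all keratinocytes for 6 of 8 genes, Klk10 and Klk13 being the exceptions. The class held 192 control and 1134 ablated cells. Klk7 was 4484 CPM in control and 5071 CPM in ablated cells, which gives a log2 ratio of 0.18. Spink5 was 6849 and 5376 CPM, with a log2 ratio of -0.35. Klk5 was 589 and 868 CPM (0.56), and Klk8 was 545 and 753 CPM (0.47). None of these 4 genes passed 2-fold. Klk6 rose from 80.1 to 361 CPM (2.17), Klk11 from 65.0 to 137 CPM (1.07) and Klk13 from 1 to 35 UMIs (3.24, interval 0.66 to 8.58). Klk10 was 3.61 and 36.0 CPM (3.32), beside 4.67 and 35.8 CPM in immune cells. By the rule 4 of the 8 genes with enough UMIs passed 2-fold upward and 0 downward, where 9.72% of genes rose and 3.46% fell. Klk10 and Klk13 reached the minimum of 20 UMIs through the ablated library, and of the 6 genes with at least 20 control UMIs, 2 rose.

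These 1-day granular-like values depend on the removal of doublets. With no barcode removed as a doublet, Klk5 turned to -0.41, Klk7 to -0.19 and Klk8 to -0.60. Klk6 then came to 0.75, Klk10 to 1.46, Klk13 to 0.96 and Spink5 to -1.46. Klk7 kept its sign in 8 of 10 alternatives. With only barcodes of at least 3000 UMIs, Spink5 came to 0.00. Klk11 stayed past 2-fold in 5 of 10 alternatives. Cells deep enough to be thinned to 2000 UMIs had a median of 8768 UMIs for the control and 5264 for the ablated library. Summed immune markers in the class were 119 and 341 CPM, with 11 and 1 of 27 markers at 0 UMIs and 23 of 27 higher in the ablated library. Their part in the result was not tested.

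At 1 week 6 of 8 genes rose in granular-like cells and 0 fell, where 6.88% of genes rose, 11.9% fell and the median log2 ratio of all genes was -0.19. Klk7 rose from 1904 to 4656 CPM (1.29), Klk5 from 325 to 749 CPM (1.20) and Klk8 from 137 to 618 CPM (2.17). Klk6 rose from 32.2 to 1182 CPM (5.20), Klk11 from 58.4 to 130 CPM (1.16) and Klk13 from 2.38 to 54.4 CPM (4.51). Spink5, at 2722 and 4458 CPM (0.71), and Klk10, at 88.2 and 157 CPM (0.83), did not pass 2-fold. Summed immune markers were 1056 and 1273 CPM, with 13 of 27 higher in the ablated library, and their part in the result was not tested. Klk13 reached the minimum of UMIs through the ablated library, where 10 of 631 cells held 86.7% of its UMIs, and without it 5 of 7 rose. The class could be compared in 6 alternatives, and 3 calls changed in some of them. Klk10 passed 2-fold in 3 of the 6, up to 2.60 at a clustering resolution of 2, and 10 control cells held 84.5% of its 148 control UMIs. Klk11 kept its call in 4 (lowest 0.56, as the mean of the CPM per cell) and Klk5 in 5 (lowest 0.96, by the same mean).

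Different clusters held the class after 1 week in the 2 libraries. Of 179 control cells, 104 formed a cluster led by 2310050C09Rik, Serpina12 and Flg2 with 0 ablated cells, and of 631 ablated cells, 461 formed one led by Krt6b, Sprr2d and Lor with 0 control cells. One cluster, led by Lce1m, Lor and Lce1a2, held 75 control and 170 ablated cells. In it Klk7 rose from 2387 to 6576 CPM, Klk5 from 386 to 1047, Klk6 from 40.3 to 1376, Klk8 from 152 to 905 and Spink5 from 3265 to 6758 CPM. For Klk6, 10 cells held 97.9% of the 48 control UMIs and 10 held 69.5% of the ablated UMIs. Klk10 was 96.4 and 66.6 CPM there, with all 115 control UMIs in 4 cells and 94.9% of the 178 ablated UMIs in 10 cells, and the share of cells with a Klk10 UMI had the other order, 5.33% and 11.2%. All 204 Klk13 UMIs of its ablated cells lay in 9 cells, and its 4 control UMIs were under the minimum, so its rise is no support. In this cluster 7 of 8 genes rose, where 6.05% of all genes rose, 32.9% fell and the median log2 ratio of all genes was -0.54. Summed immune markers were 1441 CPM in the control against 135 in the ablated cells, whose part in the result was not tested. After thinning to 2000 UMIs, 59.2% of 71 control and 97.6% of 167 ablated cells of the cluster had a Klk7 UMI, from median depths of 14605 and 15168 UMIs, against 0.957% and 7.26% of immune cells, from 3016 and 4469.5 UMIs. Without thinning the cluster's shares were 61.3% and 98.2%, and 4 control and 3 ablated cells were too shallow to be thinned.

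In upper follicle-like cells Klk6 and Klk10 had the largest ratios of the genes with UMIs in both libraries, and Spink5 was inside 2-fold. At 1 day, with 2118 control and 1876 ablated cells, Klk6 rose from 31.8 to 256 CPM (3.01) and Klk10 from 28.6 to 209 CPM (2.87). Klk7 rose from 1546 to 3601 CPM (1.22) and Klk8 from 67.7 to 153 CPM (1.18). Over 3 immune clusters Klk7 ran from 32.7 to 153 CPM in the control and from 378 to 2407 CPM in the ablated library. Klk8 ran there from 5.95 to 81.8 CPM in the control and from 34.7 to 188 CPM in the ablated library. The part of free RNA in these rises was not tested. Klk11 was 17.0 and 48.5 CPM (1.51), beside 15.3 and 59.5 CPM in immune cells. Klk5 was 97.1 and 177 CPM (0.87), beside at most 10.8 and 189 CPM over the immune clusters. Spink5 was 1083 and 1173 CPM (0.12), beside at most 99.5 and 1138 CPM there. Hence 5 of 7 genes passed 2-fold upward and 0 downward, where 3.17% of genes rose and 1.21% fell. Klk5 passed 2-fold in 3 of 10 alternatives (1.69 with no barcodes removed as doublets), and Klk8 lost its call at a mitochondrial limit of 25% (0.94). Without doublet removal Klk6 came to 3.84, Klk7 to 1.99, Klk8 to 1.82 and Klk11 to 1.15. Klk13 had 0 UMIs in the control and 16 in the ablated cells, too few for the rule.

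At 1 week, with 492 control and 544 ablated cells of 1 cluster, Klk6 rose from 27.3 to 995 CPM (5.19, interval 4.89 to 5.50) and Klk10 from 27.9 to 878 CPM (4.97). Klk7 rose from 978 to 3086 CPM (1.66) and Klk11 from 18.5 to 49.7 CPM (1.42). The Langerhans or dendritic cell-like cluster had 0 and 941 CPM of Klk7, and the T cell-like cluster 3.49 and 0 CPM. For Klk11 the former had 19.2 and 39.7 CPM, and the T cell-like cluster 0 in both libraries. Klk8 was 24.6 and 91.0 CPM (1.89), beside 157 and 150 CPM in the T cell-like cluster and 16.0 and 76.2 CPM in the Langerhans or dendritic cell-like cluster. Klk13 had 0 UMIs in the control and 127 in the ablated cells, and the interval of its log2 ratio began at 4.48. Only 24 of the 544 ablated cells (4.41%) had a Klk13 UMI, and 10 of them held 83.5%. Klk5 was 126 and 205 CPM (0.70), and Spink5 was 1058 and 703 CPM (-0.59). So 6 of 8 genes passed 2-fold upward and 0 downward, where 8.51% of genes rose and 2.17% fell. Of the 7 genes with at least 20 control UMIs, 5 passed. With only barcodes of at least 3000 UMIs, Klk5 came to 2.49, Klk7 to 2.98, Klk8 to 3.37, Klk10 to 3.76 and Spink5 to 0.11, and Klk5 passed 2-fold in 3 of 10 alternatives. Over the 3 hashtags of the 1-day libraries, Klk6 in this class ranged from 25.7 to 40.0 CPM in the control and from 110 to 303 CPM in the ablated library. Klk10 ranged from 20.8 to 41.8 and from 161 to 325 CPM. Single pairings of hashtags fell inside 2-fold for Klk8 (lowest 0.28), Klk7 (0.93) and Klk11 (just under 1.00). For Spink5 the ranges of 803 to 1474 and 1077 to 1476 CPM overlapped.

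The upper follicle-like class was uneven inside. At 1 day it joined 2 clusters, and the larger, with 1221 control and 1259 ablated cells, lay between classes. Its mean marker score was 2.00 for the upper follicle and 1.81 for the spinous layer, and its leading genes held Krt79, Cst6 and Krt17 beside Cnfn, Flg, Ivl, Crct1 and Cdsn of the outer epidermis. Of the 2 clusters, the one led by Cst6, Defb6 and Krt79 had the higher levels of Klk6 and Klk10. There Klk6 was 54.2 CPM in control cells and 588 CPM in ablated cells, and Klk10 was 76.4 and 628 CPM. In the larger one, led by 2310046K23Rik, Krt79 and Cnfn, Klk6 was 19.8 and 116 CPM and Klk10 was 3.02 and 33.3 CPM. Spink5 had the reverse order, at 484 and 584 CPM in the first and 1404 and 1421 CPM in the second. In that larger cluster Klk10 was below its level in pooled immune cells of the same library, for control and ablated alike. There 10 cells held 62.7% of the 158 ablated Klk10 UMIs.

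Few cells held many of the UMIs. The 10 highest cells of the 1-week upper follicle-like class held 58.3% of its Klk6 and 54.2% of its Klk10 UMIs in the ablated library, and 83.3% and 90.2% in the control. After thinning each cell to 2000 UMIs, the share of cells with a Klk6 UMI was 3.48% of 460 control and 20.7% of 522 ablated cells. For Klk10 it was 1.74% and 19.7%, and for Klk7 35.9% and 64.4%. The same shares in immune cells were 0 of 209 (exact 95% binomial interval up to 1.75%) and 1.61% of 124 for Klk6, 0.478% and 0.806% for Klk10, and 0.957% and 7.26% for Klk7. Median depth before thinning was 6287 and 8343.5 UMIs in the follicle class, and 3016 and 4469.5 in the immune cells. For Spink5 the follicle shares were 45.7% and 39.7%. Too shallow to be thinned were 32 control and 22 ablated follicle cells, and 130 and 63 immune cells. Without thinning, the follicle shares were 4.88% and 28.9% for Klk6, 3.86% and 29.2% for Klk10, 43.9% and 73.0% for Klk7, and 59.8% and 53.9% for Spink5. Summed immune markers in the follicle class were 112 and 107 CPM after 1 week, and 166 and 195 CPM after 1 day, with 18 of 27 higher in the 1-day ablated library.

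In basal-like and spinous-like cells after 1 day, many ratios were large but most levels were at or below those of the pooled immune cells. Klk7 was 26.3 CPM in control and 248 in ablated basal-like cells, and 44.7 and 512 CPM in spinous-like cells, all below the same value for immune cells of the same library. Klk5 was 1.94 and 9.21 CPM in basal-like cells, and 16.1 and 57.6 CPM in spinous-like cells, against 6.79 and 101 in immune cells. In the basal-like class 5 of 7 genes passed 2-fold upward, where 4.73% of genes rose and 5.96% fell. Klk6, at 0.495 and 5.42 CPM there, had under 20 control UMIs and few in the ablated library, so its call is no support. Of the genes with at least 20 control UMIs 4 of 6 passed. Klk8 lost its basal-like call with only barcodes of at least 3000 UMIs (0.88), and single pairings of hashtags fell inside 2-fold for Klk5 and Klk8 (lowest 0.77 and 0.20). In the spinous-like class 5 of 6 did, where 6.11% rose and 7.15% fell. The spinous-like ratios moved widely over 10 alternatives, from 1.31 to 6.06 for Klk5, 3.12 to 7.02 for Klk7, 1.28 to 4.25 for Klk8 and 1.20 to 3.19 for Spink5. Klk10 ran from 0.65 to 2.95 there and lost its call in 1 alternative, and Klk11, inside 2-fold at 0.43, passed it in 3. Summed immune markers were 214 and 200 CPM in basal-like cells and 101 and 185 CPM in spinous-like cells, with 11 and 17 of 27 higher in the ablated library, and their part in the result was not tested. Klk10 and Klk11 were above the immune level in control basal-like cells, at 17.3 and 39.5 CPM against 4.67 and 15.3. In the ablated library these 2 were 21.1 and 55.2 CPM, against 35.8 and 59.5 in immune cells, and neither passed 2-fold. Spink5 in spinous-like cells was 254 CPM in the control, above the immune 72.2, and 658 in the ablated library, against 563. Klk11 in spinous-like cells was 53.2 CPM in the control, above the pooled immune 15.3 and the 11.8 to 33.2 CPM over 3 immune clusters. In the ablated library it was 71.6 CPM, against 59.5 in pooled immune cells and 18.7 to 90.9 CPM over these clusters. Klk8 in spinous-like cells was 21.9 and 67.2 CPM, beside 5.95 to 81.8 and 34.7 to 188 CPM over 3 immune clusters.

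Proteases were then set against Spink5 in the same cells, as UMIs of the 8 kallikreins per UMI of Spink5. In this quantity the cells' totals cancel. It counts all 8 alike, and which of them Spink5 inhibits was not measured here. In all keratinocytes it was 0.852 for control and 2.60 for ablated cells after 1 day, and 0.854 and 2.74 after 1 week. In granular-like cells it was 0.842 and 1.34 after 1 day (intervals 0.819 to 0.865 and 1.33 to 1.36), and 0.936 and 1.69 after 1 week. In upper follicle-like cells it was 1.65 and 3.79 after 1 day, and 1.14 and 7.58 after 1 week (intervals 1.09 to 1.19 and 7.32 to 7.86). The ablated library was above its control in each of these 6 pairs, with intervals apart. The 1-day upper follicle-like values pool the unlike clusters described above, the larger of which lay between classes.

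The kallikreins that made up this sum differed. Klk7 gave 81.3% of the kallikrein UMIs of 1-week upper follicle-like cells of the control and 57.9% of those of the ablated library, while Klk6 gave 2.27% and 18.7%. Klk10 had 92 control and 4399 ablated UMIs there, beside 3222 and 15466 of Klk7. In granular-like cells after 1 week Klk7 gave 74.7% and 61.7%, and Klk6 1.26% and 15.7%. Pooled immune cells had 2.53 and 3.07 kallikrein UMIs per Spink5 UMI after 1 day and 1.09 and 1.67 after 1 week, and their clusters differed as described. The 10% of barcodes with the fewest UMIs had 1.31 and 2.70 after 1 day, and 0.633 and 2.64 after 1 week. The part of free RNA in the keratinocyte values was not tested. Messenger RNA was counted here, not active protease or released inhibitor.

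**Figure D4:**
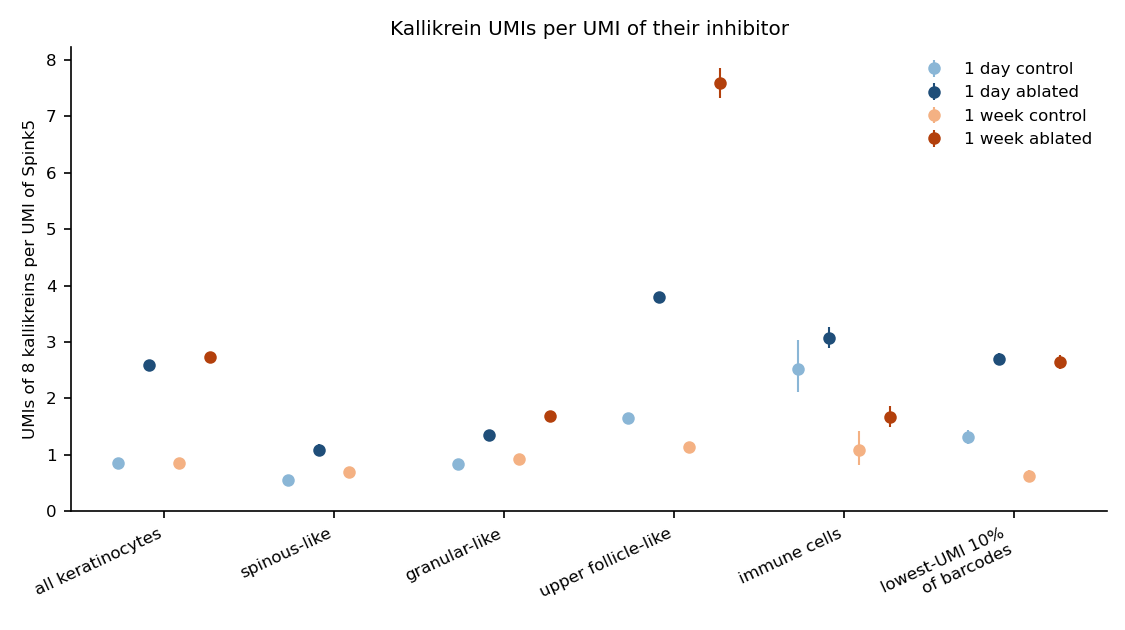
UMIs of the 8 kallikreins per UMI of Spink5 (linear axis) in all keratinocytes, 3 keratinocyte classes, immune cells and the 10% of barcodes with the fewest UMIs, for each library; bars are 95% intervals for counting error. The ablated points lie above the controls, farthest in 1-week upper follicle-like cells, at 7.58 against 1.14; the 1-week ablated spinous-like class is too small to show.

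Other genes of the pathway came from 4 lists. Of 19 upstream and other epidermal proteases, 7 of 16 tested rose in keratinocytes after 1 day and 9 of 15 after 1 week, and 0 fell. The list's median log2 ratio was 0.86 and 1.20. Without Tmprss11d after 1 day and Tmprss11e after 1 week, which had under 20 control UMIs and reached the minimum through the ablated library, 6 of 15 and 8 of 14 rose. Prss27, a membrane serine protease, was the highest of this list, going from 0.838 to 15.5 CPM after 1 day (4.21) and from 0.692 to 37.5 CPM after 1 week (5.76). Of 18 other kallikreins, 2 of 2 tested rose after 1 day and 3 of 3 after 1 week. The neighbour Klk9 went from 8.95 to 64.3 CPM after 1 day and from 7.32 to 37.5 after 1 week. Klk12 went from 27 to 94 UMIs (2.52) and from 5 to 143 UMIs (5.27). Klk12 and Klk1 reached the minimum after 1 week through the ablated library, so only Klk9 counts there. Klk1, tested after 1 week only, has near-identical copies, so its count is uncertain.

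Of 23 other protease inhibitors, 7 of 15 tested rose and 0 fell after 1 day, with a median log2 ratio of 0.90. At 1 week 6 of 14 rose and 1 fell, with a median of 0.69. Spink12 at both times and Wfdc12 after 1 week had under 20 control UMIs, and without them 6 of 14 rose after 1 day (median 0.60) and 4 of 12 after 1 week (median 0.39). Wfdc12, of the whey acidic protein family, had log2 ratios of 6.08 and 8.90, the second from 1 control UMI (interval 6.41 to 14.2). Slpi, an inhibitor of leukocyte elastase, went from 5.08 to 397 CPM after 1 day (6.29). Wfdc18 had a ratio of 5.35 after 1 week, and Spink12 went from 0 to 26 UMIs. Cst3, a cysteine protease inhibitor, had -0.75 after 1 day. Serpina12, known as vaspin and as an inhibitor of Klk7, was 27.1 and 29.4 CPM after 1 day (0.12) and fell from 22.8 to 6.94 CPM after 1 week (-1.72).

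Of 13 substrates and signalling targets, 4 of 12 tested rose at each time, namely Flg, Flg2, Tslp and Sprr1a. Flg encodes filaggrin, a protein of the granular layer, and went from 19.5 to 270 CPM after 1 day (3.79) and from 11.8 to 316 CPM after 1 week (4.74). After 1 day 0 fell, and after 1 week 3 fell, F2r, Dsg1a and Dsg1c. The list's median log2 ratio was 0.48 and 0.32. F2r, a protease-activated receptor, had the lowest ratios, at -0.94 after 1 day and -1.73 after 1 week. F2rl1, the receptor of that family that Klk5 and Klk14 can activate, had -0.45 after 1 day. Dsg1c fell by 1.48 after 1 week on the log2 scale, from few UMIs and with close copies in Dsg1a and Dsg1b. These lists are read against the 6.19% and 9.82% of all genes that rose, and the 3.05% and 5.76% that fell. Their values are sums over all keratinocytes, in which more cells of a class and more RNA per cell cannot be told apart. Flg and Flg2 are also markers that named the granular-like class, which was a larger share of the ablated keratinocytes.

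The genes whose pattern was most like each member were found across clusters of at least 100 cells in a library, with 46 points after 1 day and 59 after 1 week. The measure was the smaller of the 2 Pearson correlations, among 10682 genes. Points share libraries and free RNA, so these values are descriptions. Spink5 was most like Sbsn (0.95), Dsc1 and Krt80, which are genes of upper epidermal layers. Klk5 was most like Tgm1 (0.92), the crosslinking enzyme of the cell envelope, and Klk7 and Klk8 were each most like Klk5 (0.90 and 0.90). Klk6 was most like Prss27 (0.78), then Chil1 and Rptn. Klk10 was most like Elf3 (0.78), an epithelial transcription factor, then Krt18 and Cwh43, and Klk11 most like Il1rn (0.88). Klk13 and Klk14 had too few UMIs for this measure.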

How the data were processed

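Single-cell RNA was counted in 4 libraries of mouse epidermis, 1 per genotype and time. The authors deposited whole-number UMI counts per gene and barcode, made with Cell Ranger 5.0.1 and Seurat on mm10, per the submitters' processing notes. From these counts, barcodes were kept from 500 UMIs and 300 genes upward and up to 15% of mitochondrial UMIs (scanpy 1.11.5). Scrublet's automatic threshold marked from 0.00314% to 19.4% of barcodes, so the highest-scoring 0.8% per 1000 barcodes were removed instead, 14.7% to 25.5% of a library, leaving 15639 to 23741 cells. Each time point was clustered alone (leidenalg 0.10.2, resolution 1, 2000 variable genes without the members). List genes were kept out too, apart from Flg, Flg2, Casp14 and Cst6, which are also cell type markers. Clusters were named from fixed markers, with naming limits set after the data were seen. Keratinocytes leave out clusters led by Krt8, of mixed markers or of low UMI counts.

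UMIs were summed per library and class, and given as CPM with exact Poisson 95% intervals. Ratios have exact conditional binomial intervals (scipy 1.17.1). Classes with at least 50 cells in both libraries were compared. All 9 members are named. From the lists, the 3 highest and 3 lowest ratios at each time set the named genes. Klk9, Klk12, Klk1, Wfdc18, Flg, Flg2, Tslp, Sprr1a, Dsg1a, Tmprss11d and Tmprss11e fall outside that rule and were chosen after their values were seen. Members and lists were chosen with earlier results of these data known. The ratio and thinning steps were tested on simulated data. Scaling by edgeR 4.0.16 (TMM) was an alternative. Gene positions are from the GRCm38 annotation.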

Additional observations from a re-analysis of the deposited data

Results flagged for a closer look

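Spink5 had ratios of opposite sign at the 2 time points in 3 classes, with counting intervals on opposite sides of 0. In granular-like cells its log2 ratio of ablated over control was -0.35 at 1 day and 0.71 at 1 week. The 1-day value came to 0.00 with only barcodes of at least 3000 UMIs, which ends the difference in sign. In upper follicle-like cells it was 0.12 and -0.59, and in bulge-like cells 0.73 and -1.97. Neither 1-day sign held over single pairings of hashtags, which ran from -0.45 to 0.88 in upper follicle-like and from -1.18 to 1.52 in bulge-like cells. The 1-day value in upper follicle-like cells came to -0.01 at a mitochondrial limit of 25%, and the 1-week value to 0.11 with only barcodes of at least 3000 UMIs. The differences between times were not tested, and the 2 times were also made with different kits. In 1-week bulge-like cells the control level of 247 CPM came mostly from 10 cells, which held 94.5% of its Spink5 UMIs, and the ablated level was 63.2 CPM. The share of bulge-like cells with a Spink5 UMI went the other way, from 4.81% to 7.90%.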

How the results depend on the processing

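Over all keratinocytes, the number of genes higher past 2-fold was 6 to 9 at 1 day, with 6 to 8 in the pairings of single hashtags and 8 with only barcodes of at least 3000 UMIs, and 8 at 1 week, or 9 with 1.5-fold in place of 2-fold, which adds Klk11, and the number lower was 0 in each alternative run. Apart from the pairings of hashtags, in which Klk11, Klk13 and Spink5 fell inside 2-fold in some, every member kept its direction and its side of 2-fold in the alternatives in which its ratio was computed, 14 at 1 day and 13 at 1 week. There Klk6 ranged from 3.67 to 4.13 and from 7.02 to 7.80, Klk11 from 1.11 to 1.40 and from 0.19 to 0.63, and Spink5 from 1.06 to 1.75 and from 1.21 to 1.89. Within classes, Klk11 in bulge-like cells at 1 week turned from 2.51 to -0.36 with no barcodes removed as doublets, and the cause was not tested. The 2.51 came from only 3 control and 20 ablated UMIs (interval 0.76 to 4.90), and 10 cells held 90.0% of the latter. Spink5 in upper follicle-like cells ranged from -0.01 to 0.37 at 1 day and from -0.70 to 0.11 at 1 week, and in bulge-like cells at 1 week from -2.03 to -0.21. The 1-week granular-like class had 50 cells in both libraries in 6 alternatives. The alternatives that counted mixed or low-UMI clusters and those by hashtag were chosen after seeing the data. No paired analysis was possible because each group is 1 library, and for the same reason no replicate could be left out.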
